A study of Homo sapiens with 12 samples.

Results

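The genes described here are 53 that copy DNA, supply its building blocks or control that supply, chosen by their names in the deposited gene table, which lists 57773 genes. Each of the 53 was found on 1 row and all 53 passed the filter on low counts, among 20571 genes tested. They fall into 11 genes of origin licensing, 8 of origin firing, 20 of the replication fork, 3 of the chromatin laid down behind the fork, 5 of nucleotide supply and 6 of E2F and cyclin E control. RNA was sequenced from MDA-MB-231, an established line of triple-negative breast cancer, in 12 libraries that form 4 groups of 3. TGFB cells received TGFβ, a signalling protein that acts through SMAD factors, ALIS cells received alisertib, an inhibitor of the mitotic kinase Aurora A, Combination cells received both agents, and CTL cells were untreated. Treatment lasted 48 h and all cells grew in the same serum-containing medium; the sources used here give no doses. All groups are 1 cell line. Separate cultures are not stated for the libraries of a group, and p-values therefore cover the spread between libraries, which may be technical.

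A cell prepares to copy its genome by licensing: the origin recognition complex, CDC6 and CDT1 load the ring-shaped MCM helicase onto DNA, and geminin then holds CDT1 back. Kinases then fire the origins by joining CDC45 and the GINS complex to the helicase, and polymerases, the sliding clamp and the ligase copy both strands from nucleotides made by ribonucleotide reductase and thymidylate synthase. Most of these genes are transcribed as cells enter S phase under E2F transcription factors, which cyclin E and its kinase release from the retinoblastoma protein. E2F1 and E2F2 are known as activators of such genes, and E2F7 and E2F8 as repressors that act late in S phase.

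Total counts per library were 110282980 to 118220032 in TGFB, 97048328 to 105563951 in ALIS, 105921831 to 120619368 in Combination and 93701658 to 100328721 in CTL. TGFB library 6, ALIS library 9, Combination library 10 and CTL library 1 stood apart from their partners: across 11083 genes, their deviation from the group mean correlated with GC content at -0.754, -0.723, -0.785 and -0.726 (Spearman), against 0.158 to 0.805 in the other 8 libraries. Each group held 1 such library. The labelled cell type was checked against its markers: vimentin (VIM) lay at 1220 to 2130 CPM (counts relative to the size of the library), keratin 18 (KRT18) at 262 to 339 CPM and EGFR at 382 to 570 CPM over the 12 libraries. The oestrogen and progesterone receptor genes (ESR1, PGR) were too low to test. The other receptor gene checked, ERBB2, was not absent and lay at 48.5 to 73.2 CPM. Of the markers of other cells, the 3 tested leukocyte genes of 5 listed summed to 0.866 to 0.994 CPM in TGFB, 1.42 to 1.90 CPM in ALIS, 0.780 to 0.927 CPM in Combination and 1.61 to 3.29 CPM in CTL libraries, with the defining gene PTPRC at 0 to 0.18 CPM. None of the endothelial markers was high enough to test. Summed fibroblast markers were 50.4 to 54.4 CPM in TGFB, 11.2 to 14.3 CPM in ALIS, 34.7 to 42.5 CPM in Combination and 13.8 to 16.5 CPM in CTL libraries. In the fibroblast list LUM and PDGFRB were tested and DCN was too low. LUM lay at 0.869 to 2.14 CPM and PDGFRB at 9.73 to 52.8 CPM, so the sum mostly reflects the single gene PDGFRB. The part of these markers in the results was not tested. The kit did not mark the strand, so reads could not be told apart by strand where exons of different genes overlap. By the span from start to end of the gene, 14 members overlap a gene that has at least 10% of their count (MCM2, GINS2, DBF4, RFC4, RFC5, RPA1, RPA3, POLA1, PRIM1, FEN1, CHAF1A, CHAF1B, TYMS and CCNE2). Whether their exons overlap was not checked.

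Levels of different genes were compared per kilobase of the gene length given in the table. In CTL cells the helicase subunit MCM3 was the most abundant member with 135 CPM per kilobase, followed by the clamp PCNA with 119 and thymidylate synthase (TYMS) with 111. The least abundant were the licensing factor CDT1 with 1.37 CPM per kilobase and the activator E2F2 with 2.10. Summed over the 53 genes, the level was 4508, 4473 and 4459 CPM in TGFB, 4351, 4134 and 4270.0 CPM in ALIS, 3765, 3713 and 3704 CPM in Combination and 5230.0, 5019 and 4881 CPM in CTL libraries. The 4 groups did not overlap in this sum, which was lowest in Combination and highest in CTL. In bulk RNA, fewer cells in a given phase of the cycle and less RNA per cell cannot be told apart.

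**Figure D1:**
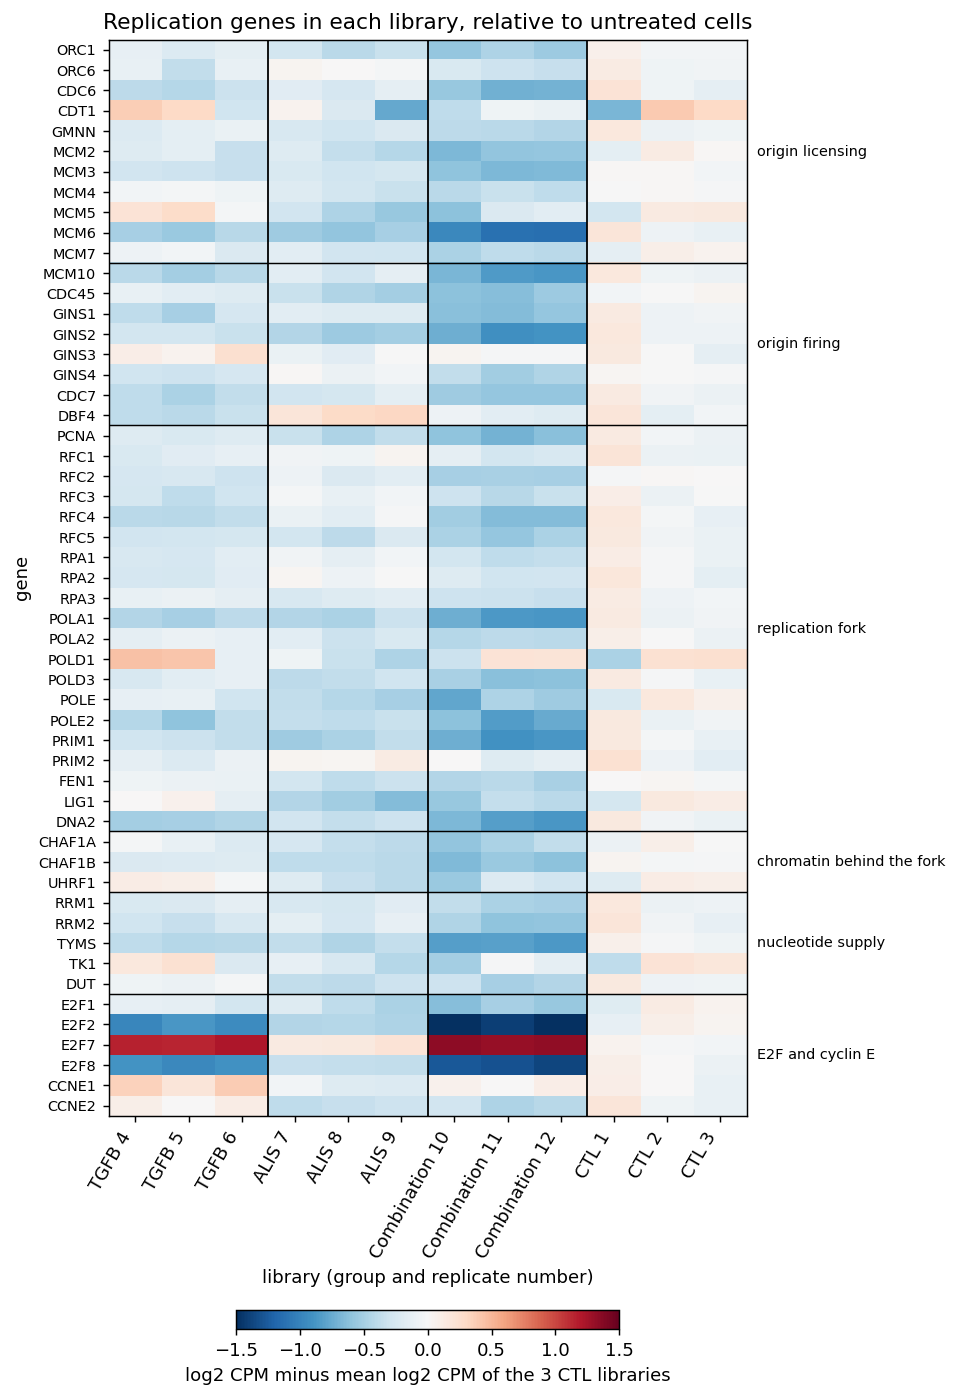
Each row is 1 of the 53 genes and each column 1 library, and colour gives log2 CPM minus the mean log2 CPM of the 3 CTL libraries. Most rows are blue in TGFB, ALIS and Combination libraries and darkest in Combination, while the E2F7 row is red in TGFB and Combination libraries.

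What many members share outside the measured values is a sequence at their start. RefSeq windows of 300 bases, 250 before to 50 after the start of a gene in GRCh38.p14, were held for 44 of the 53 members. They were searched on both strands for the 4 E2F-type motifs TTTCCCGC, TTTGGCGC, TTTCGCGC and TTTGCCGC, which can overlap one another and each other's reverse strand. At least 1 of the motifs stood in 20 of the 44 windows (45.5%), against 3.33% of 27305 promoter windows. Among other genes of the same pathway it was 13 of 52 windows (25%), so the motif is not particular to the members. The share was 6 of 9 windows in origin licensing, 3 of 7 in firing, 7 of 16 at the fork, 1 of 3 in chromatin, 1 of 5 in nucleotide supply and 2 of 4 in E2F and cyclin E control. The CHR motif TTTGAA, an element known from promoters of mitotic genes, stood in 2 of the 44 windows (4.55%), against 15.4% of all windows and 20 of 29 windows of a list of mitosis genes (69%). The 250 bases before the start are shown for 4 members with a motif. Each is from a different step and was called lower in TGFB, ALIS and Combination against CTL. E2F7, the member that moved most in the other direction, is shown as well. Motif matches are in capitals:
MCM6 (chr2:135876444-135876693, minus strand): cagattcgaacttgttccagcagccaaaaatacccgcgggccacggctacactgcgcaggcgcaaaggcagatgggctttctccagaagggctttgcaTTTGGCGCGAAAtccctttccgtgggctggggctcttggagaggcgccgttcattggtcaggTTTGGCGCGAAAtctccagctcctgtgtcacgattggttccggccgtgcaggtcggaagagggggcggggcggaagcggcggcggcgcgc
PCNA (chr20:5126623-5126872, minus strand): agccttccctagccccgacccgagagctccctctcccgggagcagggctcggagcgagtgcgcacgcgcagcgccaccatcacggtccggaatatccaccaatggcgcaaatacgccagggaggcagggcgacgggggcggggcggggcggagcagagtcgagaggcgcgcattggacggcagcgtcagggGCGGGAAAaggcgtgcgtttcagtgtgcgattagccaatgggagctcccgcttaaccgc
TYMS (chr18:657403-657652, plus strand): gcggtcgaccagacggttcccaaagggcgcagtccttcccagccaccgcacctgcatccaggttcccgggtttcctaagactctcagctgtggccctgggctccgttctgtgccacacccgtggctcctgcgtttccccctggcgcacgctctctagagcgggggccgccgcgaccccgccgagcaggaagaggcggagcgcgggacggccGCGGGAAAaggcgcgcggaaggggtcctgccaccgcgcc
E2F2 (chr1:23531234-23531483, minus strand): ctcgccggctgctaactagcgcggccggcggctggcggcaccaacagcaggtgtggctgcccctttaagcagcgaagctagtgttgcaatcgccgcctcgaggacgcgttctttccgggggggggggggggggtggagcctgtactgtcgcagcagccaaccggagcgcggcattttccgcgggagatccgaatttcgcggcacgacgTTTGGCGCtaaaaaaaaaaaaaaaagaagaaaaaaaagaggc
E2F7 (chr12:77065570-77065819, minus strand): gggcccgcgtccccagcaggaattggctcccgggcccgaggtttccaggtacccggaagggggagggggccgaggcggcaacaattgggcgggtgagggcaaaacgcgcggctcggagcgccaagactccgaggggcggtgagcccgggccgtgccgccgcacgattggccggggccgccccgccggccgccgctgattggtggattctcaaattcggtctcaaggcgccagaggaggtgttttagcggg

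The MCM6 stretch holds 4 matches in 2 runs of capitals, because TTTGGCGC and the reverse strand of TTTCGCGC overlap there, and the runs begin 152 and 90 bases before the start. The first base of the match lies 59 bases before the start in PCNA, 39 in TYMS and 42 in E2F2. Neither these motifs nor TTTGAA are in the E2F7 window. A match is a description of the letters and does not show that a factor binds.

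**Figure D2:**
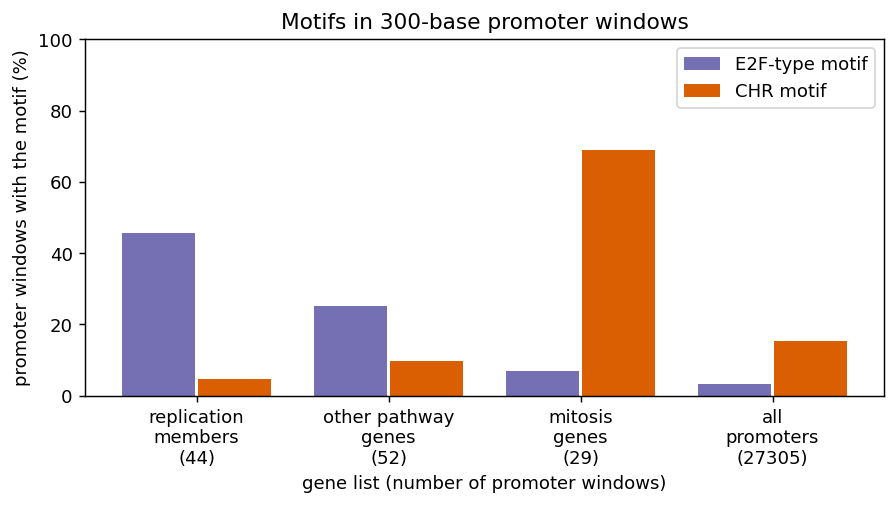
Bars give the percentage of promoter windows of 300 bases that hold an E2F-type motif or the CHR motif, for the replication members, other genes of the pathway, mitosis genes and all promoters, with the number of windows in brackets. E2F-type motifs stand in 45.5% of the member windows and the CHR motif in 69% of the mitosis windows, against 3.33% and 15.4% of all windows. Windows of the other pathway genes hold an E2F-type motif in 25%.

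By the median of the 53 members, replication genes were lower with either agent and lowest with both. Single genes such as LIG1 and E2F7 departed from this order. With TGFβ alone, 27 of the 53 members were called lower than in CTL and 2 higher, E2F7 and CCNE1, where called means an adjusted p under 0.05 over all tested genes in edgeR. Of all tested genes 38.6% were called in that comparison, 20.1% lower and 18.5% higher. With alisertib alone, 30 members were called lower and 1 higher, E2F7, against 6.74% of all genes called, 3.19% lower and 3.55% higher. With both agents, 44 members were called lower and 1 higher, again E2F7, against 39.7% of all genes called, 20.3% lower and 19.4% higher. The median log2 fold change over the 53 members was -0.20 in TGFB, -0.30 in ALIS and -0.48 in Combination libraries against CTL, where the median of all tested genes lay within -0.01 and 0.003. These 3 comparisons share the CTL libraries.

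The agents were also set against each other. Adding alisertib to TGFβ (Combination against TGFB) left 29 members called lower and 0 higher, with a median of -0.31, where 2.08% of all genes were called, 0.890% lower and 1.19% higher. DESeq2 called 33 lower and 0 higher there, and in edgeR 2 members were higher and 41 lower at an unadjusted p under 0.05. Adding TGFβ to alisertib (Combination against ALIS) left 35 members called lower and 2 higher, E2F7 and CCNE1, with a median of -0.22, where 38.4% of all genes were called, 19.0% lower and 19.4% higher. Without the 4 libraries that stood apart, 34, 40 and 47 members were lower in TGFB, ALIS and Combination against CTL. Called higher there were 4, 3 and 1, which then included POLD1 and CCNE2 in TGFB and DBF4 and PRIM2 in ALIS. In Combination against TGFB 44 were lower and 2 higher, DBF4 and E2F7. The medians of these comparisons were -0.17, -0.27, -0.46 and -0.33. Within those 4 libraries alone, 1 per group and thus with no test, the medians were -0.27, -0.31, -0.51 and -0.29. The shares of all genes given above belong to the fit on all 12 libraries and not to the fit on 8. In that fit on 8, calls in ALIS also rose in other lists. Of 62 other pathway genes 25 were lower and 5 higher, where it was 12 and 0. Of 33 mitosis genes 15 were higher and 2 lower, where it was 3 and 0. Leaving out 1 library moved the counts of 2 comparisons by over 1.5 times. For ALIS against CTL 17 members were called without ALIS library 8 and 20 without ALIS library 9. For Combination against TGFB it was 16 without TGFB library 4, 17 without TGFB library 5, and 19, 16 and 18 without Combination library 10, 11 and 12. The call of CCNE1 in Combination against ALIS was lost without CTL library 2 or 3, TGFB library 4, ALIS library 8 or 9, or any 1 Combination library, with adjusted p-values between 0.0503 and 0.193.

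**Figure D3:**
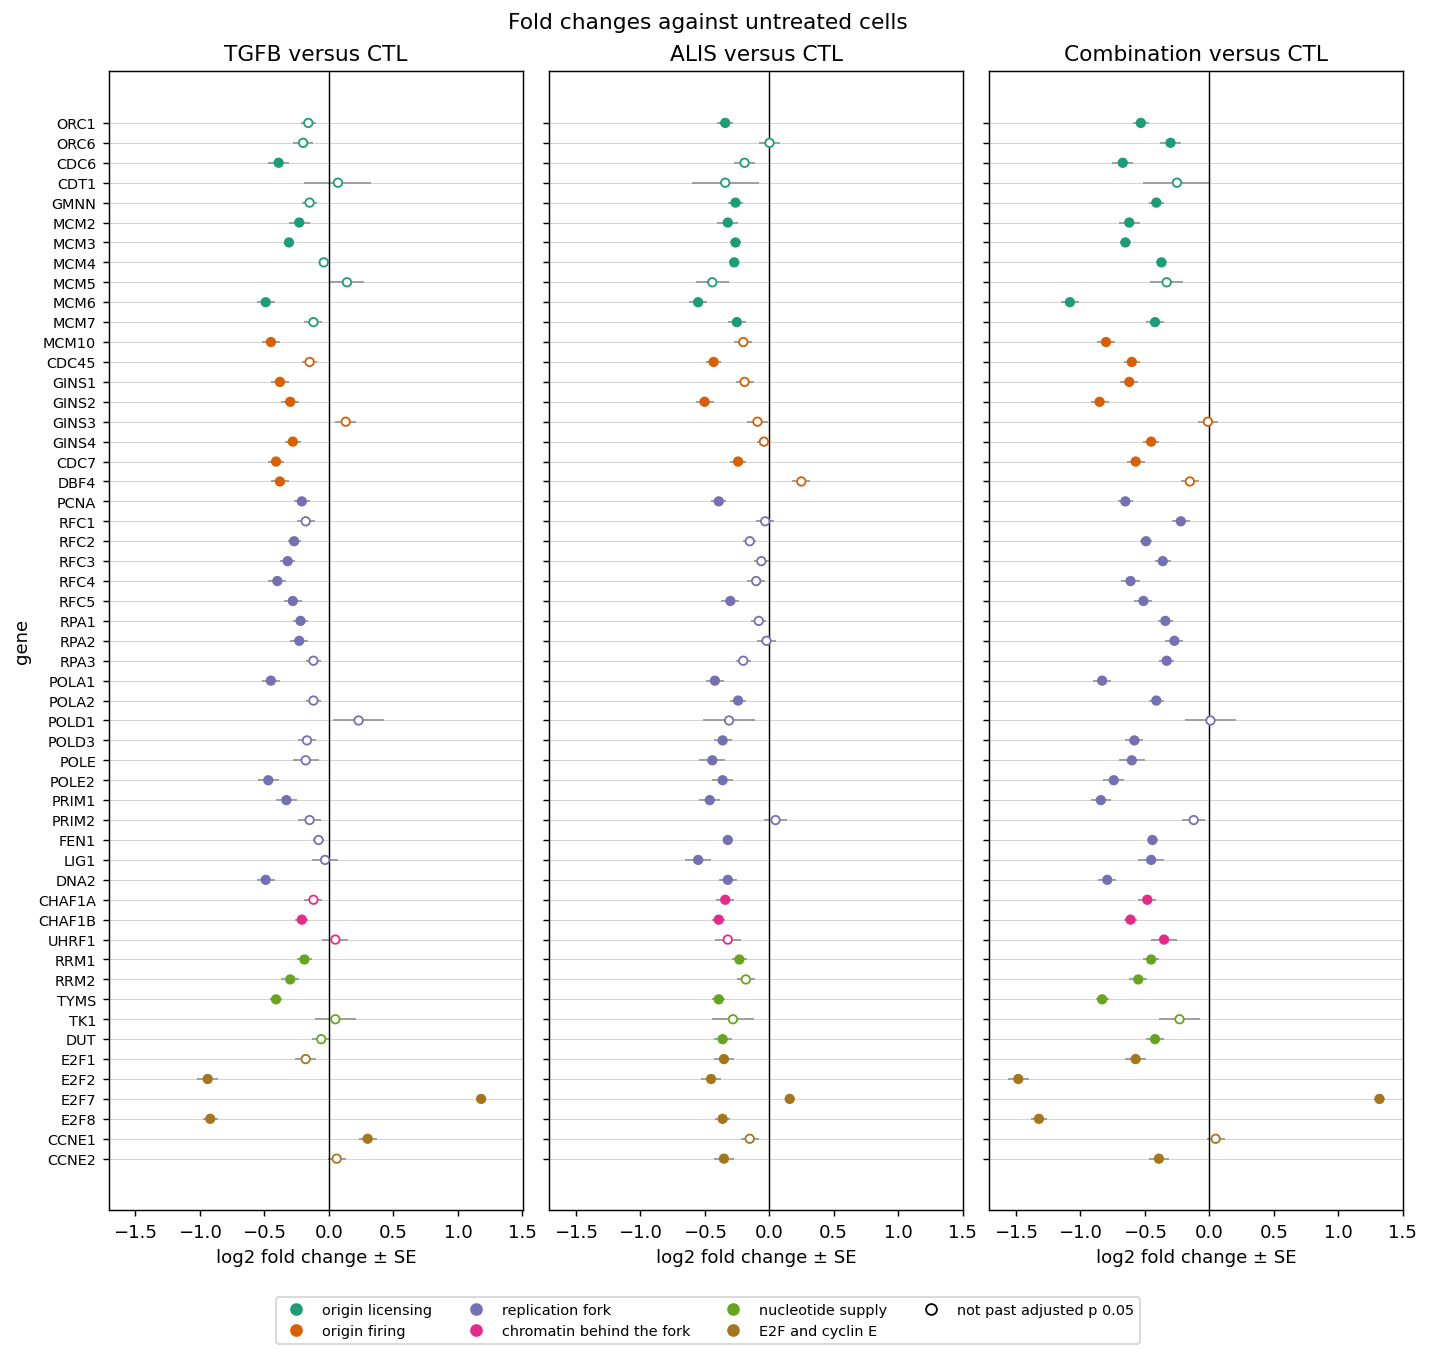
Points are log2 fold changes of the 53 genes with their standard errors (SE) in TGFB, ALIS and Combination against CTL libraries, coloured by step, filled where the adjusted p is under 0.05 and open where it is not. Filled points number 29, 31 and 45 in the 3 panels, and all of them but E2F7 and, with TGFβ, CCNE1 lie left of 0.

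Among the 11 genes of origin licensing, 4 were lower with TGFβ, 7 with alisertib and 9 with both. MCM6, a subunit of the helicase (ENSG00000076003, hg19 chr2:136597196-136633996), changed most. MCM6 stood at 132, 127 and 139 CPM in TGFB, 128, 123 and 132 CPM in ALIS, 95.5, 85.8 and 84.6 CPM in Combination and 211, 177 and 172 CPM in CTL libraries. All 9 treated libraries lay below the CTL libraries, TGFB and ALIS overlapped, and Combination lay below both. Its log2 fold change was -0.49 ± 0.07 (SE, adjusted p = 8.95e-05) in TGFB, -0.55 ± 0.07 (SE, adjusted p = 0.000573) in ALIS and -1.08 ± 0.07 (SE, adjusted p = 3.14e-08) in Combination against CTL. A level of 0.475 times that of CTL cells remained with both agents.

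ORC1, the largest subunit of the origin recognition complex (ENSG00000085840, hg19 chr1:52838501-52870131), was lower with alisertib. ORC1 was measured at 25.6, 24.3 and 25.3 CPM in TGFB, 23.1, 21.2 and 22.3 CPM in ALIS, 18.8, 20.4 and 19.1 CPM in Combination and 29.6, 27.1 and 27.2 CPM in CTL libraries. The 4 groups did not overlap. On the log2 scale the change from CTL was -0.34 ± 0.06 (SE, adjusted p = 0.00423) in ALIS and -0.53 ± 0.06 (SE, adjusted p = 6.98e-06) in Combination, while in TGFB it was -0.16 ± 0.06 (SE, adjusted p = 0.0512), which missed the threshold. Geminin (GMNN), the inhibitor of CDT1, ran in the same order. GMNN had 48.9, 51 and 52.5 CPM in TGFB, 47.6, 45.7 and 48.5 CPM in ALIS, 43, 42.6 and 41.6 CPM in Combination and 62.7, 53 and 53.9 CPM in CTL libraries. Here too the 4 groups did not overlap. The fitted log2 fold change of GMNN was -0.26 ± 0.06 (SE, adjusted p = 0.0256) in ALIS and -0.41 ± 0.06 (SE, adjusted p = 9.91e-05) in Combination, and it was -0.15 ± 0.06 (SE, adjusted p = 0.0694) in TGFB. With the term for the 4 libraries that stood apart, ORC1 and GMNN were called lower in TGFB, at adjusted p-values of 0.0139 and 0.00568, but without those libraries they were not, at 0.0889 and 0.0884. The GMNN call in ALIS was lost without ALIS library 7, 8 or 9, with adjusted p-values of 0.0684, 0.112 and 0.0562.

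MCM2, another helicase subunit, was lower in each of the 3 comparisons with CTL. MCM2 stood at 78, 80.4 and 69.7 CPM in TGFB, 78, 69.5 and 66.2 CPM in ALIS, 55.7, 59 and 59.3 CPM in Combination and 80.5, 96.7 and 90.3 CPM in CTL libraries. Every treated library lay below the CTL libraries, by a narrow margin in TGFB, and Combination lay below the rest. Relative to CTL the log2 fold change was -0.23 ± 0.08 (SE, adjusted p = 0.0299) in TGFB, -0.32 ± 0.08 (SE, adjusted p = 0.0236) in ALIS and -0.62 ± 0.08 (SE, adjusted p = 1.57e-05) in Combination. The TGFB call was lost without CTL library 2 or 3 or TGFB library 4 or 6, with adjusted p-values of 0.143, 0.0886, 0.0557 and 0.127, and the ALIS call without CTL library 2 or 3 or ALIS library 8 or 9, with 0.112, 0.109, 0.0993 and 0.111. MCM3, the most abundant member, had log2 fold changes of -0.31, -0.26 and -0.65 in TGFB, ALIS and Combination, called in each.

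CDT1, which loads the helicase together with CDC6, was not called against CTL in the fit on all 12 libraries. CDT1 was measured at 5.63, 5.34 and 3.52 CPM in TGFB, 4.52, 3.76 and 2.55 CPM in ALIS, 3.35, 4.15 and 4.07 CPM in Combination and 2.70, 5.70 and 5.33 CPM in CTL libraries. TGFB library 6, ALIS library 9, Combination library 10 and CTL library 1, the 4 libraries that stood apart, were each the lowest of their group, and the groups overlapped. Its SE of 0.26 on the log2 scale was the largest among the members, and the transcript has a GC content of 64.9%.

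Among the 8 genes of origin firing, 6 were lower with TGFβ, 3 with alisertib and 6 with both. MCM10, a scaffold of the firing origin (ENSG00000065328, hg19 chr10:13203554-13253104), had the largest fall of this step with TGFβ. MCM10 had 49.3, 46 and 49.3 CPM in TGFB, 58.6, 53.5 and 59.7 CPM in ALIS, 40.7, 36.4 and 35.8 CPM in Combination and 73, 62.7 and 61.6 CPM in CTL libraries. The 4 groups did not overlap, with TGFB below ALIS. Against CTL, the log2 fold change was -0.45 ± 0.07 (SE, adjusted p = 0.000212) in TGFB and -0.80 ± 0.07 (SE, adjusted p = 6.68e-07) in Combination, and -0.20 ± 0.07 (SE, adjusted p = 0.141) in ALIS, which was not called. It was called lower in ALIS with a term for the 4 libraries that stood apart, at an adjusted p of 0.0033, and in the 8 other libraries, at 0.0329.

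CDC45 and GINS2, which complete the active helicase, were lower with alisertib. CDC45 stood at 35.6, 34.4 and 33.7 CPM in TGFB, 30.3, 28.1 and 26.9 CPM in ALIS, 24.9, 24.6 and 26.2 CPM in Combination and 37.2, 38.4 and 39.5 CPM in CTL libraries. The 4 groups of CDC45 did not overlap. Its log2 fold change was -0.43 ± 0.06 (SE, adjusted p = 0.000545) in ALIS and -0.60 ± 0.06 (SE, adjusted p = 1.02e-06) in Combination, and -0.15 ± 0.06 (SE, adjusted p = 0.0509) in TGFB, which just missed the threshold. That TGFB value of CDC45 was called with the term for the 4 libraries, at an adjusted p of 0.00751, and without those libraries, at 0.0192. GINS2 was measured at 26.7, 26.6 and 25.5 CPM in TGFB, 23.8, 22.1 and 22.7 CPM in ALIS, 19.4, 17.1 and 17.3 CPM in Combination and 35.9, 30.5 and 30.6 CPM in CTL libraries. GINS2 likewise had no overlap between groups, and ALIS lay below TGFB. On the log2 scale the change from CTL was -0.30 ± 0.07 (SE, adjusted p = 0.00519) in TGFB, -0.50 ± 0.07 (SE, adjusted p = 0.00106) in ALIS and -0.85 ± 0.07 (SE, adjusted p = 4.13e-07) in Combination.

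DBF4, the activating subunit of the kinase CDC7 and singled out after its values were seen, was lower with TGFβ and had a positive value with alisertib. DBF4 had 35.1, 34.5 and 36.4 CPM in TGFB, 51.9, 55.6 and 56.9 CPM in ALIS, 43.5, 41 and 40.1 CPM in Combination and 52, 41.3 and 44.6 CPM in CTL libraries. The TGFB libraries lay below the CTL libraries, while ALIS and Combination each overlapped CTL. The fitted log2 fold change of DBF4 was -0.38 ± 0.07 (SE, adjusted p = 0.000955) in TGFB and 0.25 ± 0.07 (SE, adjusted p = 0.0585) in ALIS, where it was not called. Without the 4 libraries that stood apart, the value in ALIS was 0.33 with an adjusted p of 3.44e-05. Rows for pseudogenes of DBF4 hold 6.38% as many reads. CDC7 had log2 fold changes of -0.41 in TGFB, -0.24 in ALIS and -0.57 in Combination, all called, but its ALIS call was lost when any 1 library other than CTL library 3 was left out, with adjusted p-values between 0.0508 and 0.151.

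Of the 20 genes of the replication fork, 11 were lower with TGFβ, 11 with alisertib and 18 with both. PCNA, the sliding clamp that tethers polymerases (ENSG00000132646, hg19 chr20:5095599-5107272), was lower in all 3. PCNA stood at 153, 149.9 and 154 CPM in TGFB, 139, 127 and 136 CPM in ALIS, 115, 107 and 113 CPM in Combination and 192, 169.6 and 164 CPM in CTL libraries. The 4 groups did not overlap, in the order Combination, ALIS, TGFB and CTL from low to high. Relative to CTL the log2 fold change was -0.21 ± 0.06 (SE, adjusted p = 0.0131) in TGFB, -0.39 ± 0.06 (SE, adjusted p = 0.00132) in ALIS and -0.65 ± 0.06 (SE, adjusted p = 6.04e-07) in Combination. The TGFB call was lost without TGFB library 5, with an adjusted p of 0.0517.

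PRIM1, the catalytic subunit of the primase that starts each new strand, had the same order of groups. PRIM1 was measured at 23.7, 23.2 and 22.6 CPM in TGFB, 20.1, 20.9 and 22.5 CPM in ALIS, 17.4, 15.5 and 15.9 CPM in Combination and 32.1, 28.5 and 26.9 CPM in CTL libraries. No groups overlapped, although ALIS and TGFB almost met. Against CTL, the log2 fold change was -0.33 ± 0.08 (SE, adjusted p = 0.00271) in TGFB, -0.46 ± 0.08 (SE, adjusted p = 0.00195) in ALIS and -0.84 ± 0.08 (SE, adjusted p = 5.15e-07) in Combination. DNA2, a nuclease and helicase that trims flaps on the lagging strand, had the largest fall of this step with TGFβ. DNA2 had 28.9, 29 and 30.0 CPM in TGFB, 33.7, 32.1 and 33 CPM in ALIS, 25.7, 23.1 and 22.4 CPM in Combination and 45.4, 39.5 and 38.4 CPM in CTL libraries. The 4 groups were separate, with TGFB below ALIS. Its log2 fold change was -0.49 ± 0.07 (SE, adjusted p = 6.06e-05) in TGFB, -0.32 ± 0.07 (SE, adjusted p = 0.0143) in ALIS and -0.79 ± 0.07 (SE, adjusted p = 4.8e-07) in Combination. The ALIS call of DNA2 was lost without ALIS library 8, with an adjusted p of 0.074.

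LIG1, the ligase that joins the fragments of the lagging strand, was lower with alisertib and not called with TGFβ. LIG1 stood at 51.8, 54.3 and 47.2 CPM in TGFB, 38.2, 36 and 32.9 CPM in ALIS, 34.9, 40.5 and 39.2 CPM in Combination and 43.2, 57.3 and 55.9 CPM in CTL libraries. TGFB overlapped CTL, ALIS overlapped Combination, and both groups with alisertib lay below the other groups. On the log2 scale the change of LIG1 was -0.03 ± 0.10 (SE, adjusted p = 0.846) in TGFB, -0.55 ± 0.10 (SE, adjusted p = 0.00463) in ALIS and -0.45 ± 0.10 (SE, adjusted p = 0.00232) in Combination. Among the other fork genes, POLA1, the catalytic subunit of the priming polymerase, had log2 fold changes of -0.45, -0.42 and -0.83 in TGFB, ALIS and Combination. The 5 clamp loader genes RFC1 to RFC5 ranged between -0.18 and -0.40 in TGFB and between -0.03 and -0.30 in ALIS, where RFC5 was the one called. Its ALIS call was lost without ALIS library 8, with an adjusted p of 0.0998. The 3 genes of the single-strand binding protein, RPA1 to RPA3, lay at -0.08, -0.02 and -0.20 in ALIS, none of them called. RFC2 and RPA3 were called lower in ALIS with the term for the 4 libraries, at adjusted p-values of 0.00799 and 0.00253.

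Of the 3 genes of chromatin behind the fork, 1 was lower with TGFβ, 2 with alisertib and 3 with both. CHAF1B, a subunit of the factor that places histones on new DNA (ENSG00000159259, hg19 chr21:37757676-37791313), had little spread. CHAF1B was measured at 47.2, 47.4 and 47.8 CPM in TGFB, 42.1, 42.3 and 41.3 CPM in ALIS, 34.6, 37.4 and 35.7 CPM in Combination and 56.4, 53.9 and 54.3 CPM in CTL libraries. The 4 groups did not overlap. The fitted log2 fold change was -0.21 ± 0.05 (SE, adjusted p = 0.00252) in TGFB, -0.39 ± 0.05 (SE, adjusted p = 0.00024) in ALIS and -0.61 ± 0.05 (SE, adjusted p = 9.29e-08) in Combination. For its partner CHAF1A the values were less separate. CHAF1A had 52.8, 50.2 and 47 CPM in TGFB, 45.4, 42.1 and 41.1 CPM in ALIS, 35.8, 39 and 41.9 CPM in Combination and 50.9, 57.6 and 53.9 CPM in CTL libraries. TGFB overlapped CTL, and ALIS overlapped Combination, while both of the groups with alisertib lay below CTL. Relative to CTL the log2 fold change of CHAF1A was -0.34 ± 0.07 (SE, adjusted p = 0.0107) in ALIS and -0.48 ± 0.07 (SE, adjusted p = 7.89e-05) in Combination, and -0.12 ± 0.07 (SE, adjusted p = 0.221) in TGFB, where the adjusted p was 0.032 with the term for the 4 libraries and 0.072 without them. The ALIS call was lost without CTL library 2 or 3 or ALIS library 8 or 9, with adjusted p-values of 0.0585, 0.0513, 0.055 and 0.0608.

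Among the 5 genes of nucleotide supply, 3 were lower with TGFβ, 3 with alisertib and 4 with both. TYMS, which makes the thymine nucleotide (ENSG00000176890, hg19 chr18:657604-673578), had the smallest adjusted p-values of this step. TYMS stood at 211, 204 and 206 CPM in TGFB, 213, 202 and 214 CPM in ALIS, 154, 157 and 151 CPM in Combination and 290.1, 272 and 263 CPM in CTL libraries. The TGFB and ALIS libraries overlapped each other, lay below CTL, and lay above Combination. Against CTL, the log2 fold change was -0.41 ± 0.05 (SE, adjusted p = 5.39e-06) in TGFB, -0.39 ± 0.05 (SE, adjusted p = 0.000193) in ALIS and -0.83 ± 0.05 (SE, adjusted p = 2.76e-09) in Combination, and the call was kept in all 12 fits that left out 1 library in each of these comparisons.

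RRM2, the regulatory subunit of ribonucleotide reductase, was called lower with TGFβ, while its call with alisertib turned on the libraries that stood apart. RRM2 was measured at 196, 190.4 and 205 CPM in TGFB, 219, 203 and 222 CPM in ALIS, 177, 159 and 161 CPM in Combination and 274, 233 and 221 CPM in CTL libraries. ALIS overlapped both CTL and TGFB, and Combination lay below the rest. The log2 fold change of RRM2 was -0.30 ± 0.07 (SE, adjusted p = 0.00407) in TGFB, -0.18 ± 0.07 (SE, adjusted p = 0.177) in ALIS and -0.55 ± 0.07 (SE, adjusted p = 2.3e-05) in Combination. In ALIS the adjusted p of RRM2 was 0.00276 with the term for the 4 libraries, at -0.17, and 0.048 without those libraries. DUT, which removes dUTP from the nucleotide pool, was called with alisertib and not with TGFβ. DUT had 45.4, 44.4 and 46.3 CPM in TGFB, 36.5, 36 and 38.1 CPM in ALIS, 38, 33.4 and 34.7 CPM in Combination and 52.3, 44.9 and 45.1 CPM in CTL libraries. TGFB overlapped CTL, and ALIS overlapped Combination. On the log2 scale the change from CTL was -0.06 ± 0.07 (SE, adjusted p = 0.489) in TGFB, -0.36 ± 0.07 (SE, adjusted p = 0.00499) in ALIS and -0.42 ± 0.07 (SE, adjusted p = 0.000153) in Combination. For neither gene was the effect of TGFβ tested against that of alisertib.

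The 6 genes of E2F and cyclin E control moved in both directions. With TGFβ 2 were called lower and 2 higher, and with alisertib or with both agents 4 were lower and 1 higher. E2F7, an atypical E2F that represses its targets (ENSG00000165891, hg19 chr12:77415027-77459360), was the member with the largest rise. E2F7 stood at 265, 263 and 276 CPM in TGFB, 129.9, 131 and 137 CPM in ALIS, 301, 293 and 298 CPM in Combination and 123, 117 and 116 CPM in CTL libraries. TGFB and Combination libraries lay far above ALIS and CTL libraries, and within each of those pairs the group with alisertib was the higher. The fitted log2 fold change was 1.18 ± 0.04 (SE, adjusted p = 3.12e-11) in TGFB and 1.32 ± 0.04 (SE, adjusted p = 1.19e-11) in Combination, or 2.26 and 2.50 times the CTL level. In ALIS it was 0.16 ± 0.04 (SE, adjusted p = 0.0383). That ALIS call was lost without CTL library 2 or 3, TGFB library 4 or 5, ALIS library 7, 8 or 9, or Combination library 11 or 12, with adjusted p-values between 0.053 and 0.119.

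E2F8, the close relative of E2F7 with the same known role, had the opposite sign. E2F8 was measured at 20.7, 19.7 and 20.6 CPM in TGFB, 30.3, 30.1 and 29.9 CPM in ALIS, 15.9, 15.6 and 14.8 CPM in Combination and 40.9, 38.5 and 36.3 CPM in CTL libraries. The 4 groups did not overlap, lowest in Combination and highest in CTL. Relative to CTL the log2 fold change was -0.92 ± 0.06 (SE, adjusted p = 1.18e-08) in TGFB, -0.36 ± 0.06 (SE, adjusted p = 0.00194) in ALIS and -1.32 ± 0.06 (SE, adjusted p = 2.72e-10) in Combination. E2F2, an activator (ENSG00000007968, hg19 chr1:23832922-23857712), was lower in the same 3 comparisons. E2F2 had 5.79, 6.23 and 5.93 CPM in TGFB, 8.44, 8.47 and 8.31 CPM in ALIS, 3.98, 4.29 and 4.03 CPM in Combination and 10.5, 12.1 and 11.7 CPM in CTL libraries. The 4 groups of E2F2 were separate, in the same order as those of E2F8. Against CTL, the log2 fold change was -0.94 ± 0.08 (SE, adjusted p = 2.04e-07) in TGFB, -0.45 ± 0.08 (SE, adjusted p = 0.00289) in ALIS and -1.48 ± 0.08 (SE, adjusted p = 1.88e-09) in Combination, where 0.358 times the CTL level remained.

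E2F1, the other activator, was lower with alisertib and with both agents. E2F1 stood at 61.2, 60.4 and 54.8 CPM in TGFB, 58.1, 51.2 and 48 CPM in ALIS, 42.8, 47 and 45 CPM in Combination and 58.8, 72.2 and 69.2 CPM in CTL libraries. TGFB overlapped CTL, ALIS lay narrowly below CTL, and Combination lay below the rest. Its log2 fold change was -0.35 ± 0.08 (SE, adjusted p = 0.0242) in ALIS and -0.57 ± 0.08 (SE, adjusted p = 7.57e-05) in Combination, and -0.18 ± 0.08 (SE, adjusted p = 0.103) in TGFB. The TGFB value of E2F1 was called lower with the term for the 4 libraries, at an adjusted p of 0.00183, and without those libraries, at 0.00078. The ALIS call was lost without CTL library 2 or 3 or ALIS library 8 or 9, with adjusted p-values of 0.115, 0.129, 0.0994 and 0.117, and with an offset for GC content, at 0.0663.

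The cyclin E genes, whose products activate the kinase CDK2 at the start of S phase, differed in their values. CCNE1 was measured at 28.5, 25.5 and 29.2 CPM in TGFB, 21.8, 19.7 and 19.4 CPM in ALIS, 23.4, 22.5 and 24.1 CPM in Combination and 24.1, 22.5 and 20.8 CPM in CTL libraries. The TGFB libraries of CCNE1 lay above those of the other groups, and CTL overlapped both ALIS and Combination. On the log2 scale the change of CCNE1 was 0.30 ± 0.07 (SE, adjusted p = 0.00465) in TGFB, -0.15 ± 0.07 (SE, adjusted p = 0.296) in ALIS and 0.05 ± 0.07 (SE, adjusted p = 0.608) in Combination. CCNE2 had 36.8, 34.9 and 37.4 CPM in TGFB, 26.8, 27.3 and 27.9 CPM in ALIS, 28.5, 25.2 and 25.9 CPM in Combination and 39.3, 33.2 and 32.1 CPM in CTL libraries. For CCNE2 the groups with alisertib overlapped each other and lay below TGFB and CTL, which also overlapped. The fitted log2 fold change was 0.06 ± 0.07 (SE, adjusted p = 0.559) in TGFB, -0.35 ± 0.08 (SE, adjusted p = 0.0129) in ALIS and -0.39 ± 0.08 (SE, adjusted p = 0.000764) in Combination. The ALIS call of CCNE2 was lost without ALIS library 7 or 8, with adjusted p-values of 0.054 and 0.0535.

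**Figure D4:**
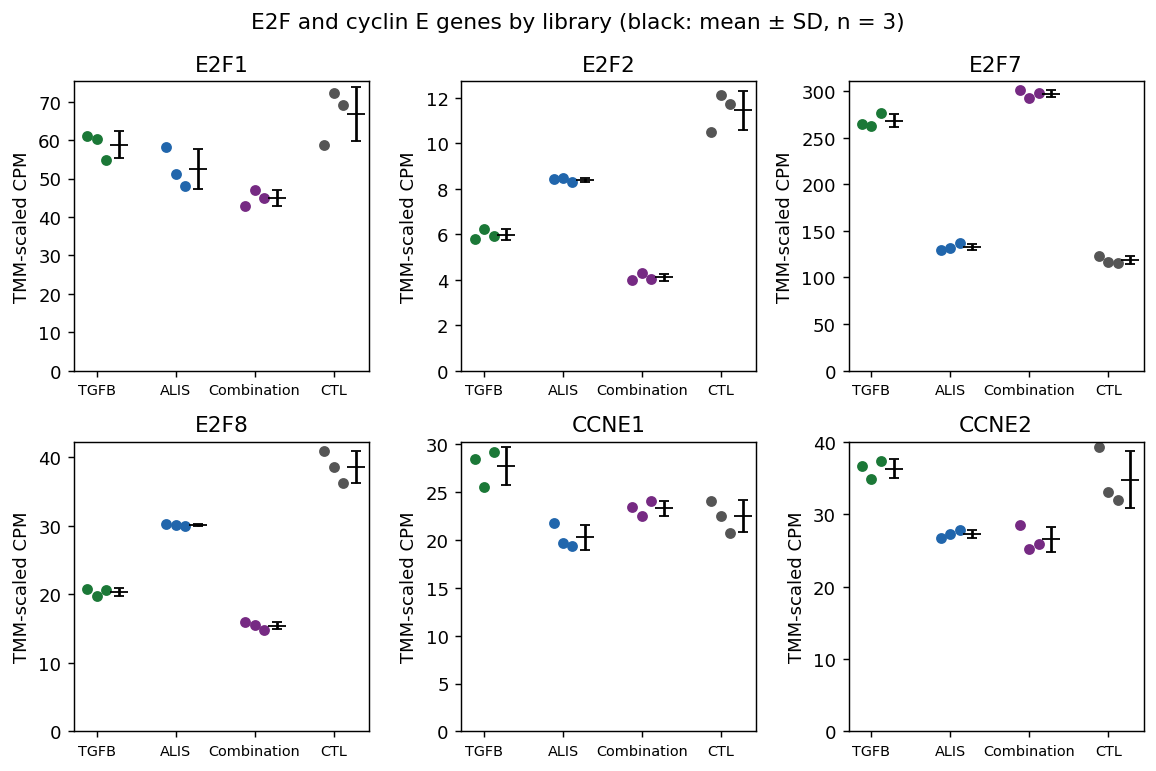
Points are TMM-scaled CPM of each library for the 6 genes of E2F and cyclin E control in TGFB, ALIS, Combination and CTL, and black bars are the mean ± SD of 3 libraries. E2F7 stands at 263 to 301 CPM in TGFB and Combination libraries and at 116 to 137 CPM in ALIS and CTL libraries, while E2F2 and E2F8 are lowest in Combination.

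Whether the response to one agent depended on the other was tested by the interaction, the alisertib effect with TGFβ minus that without it. No member was called by edgeR, where 0.282% of all genes were called, and 0 of the 53 had an unadjusted p under 0.05. DESeq2 also called 0 members, with 0 at an unadjusted p under 0.05. The smallest unadjusted p among the members was 0.131, for GINS4, a GINS subunit. The interaction was below 0 for 41 of the 53 genes, against 9407 of all 20571 tested genes. Its median was -0.04 on the log2 scale against 0.014 for all genes. The 95% interval had a median half-width of 0.21, from 0.12 for MCM3 to 0.79 for CDT1, and it lay wholly within 0.3 on either side of 0 for 37 genes. A p that misses the threshold does not show that the effects were equal, and the intervals give the differences that remain possible. Without the 4 libraries that stood apart, MCM10 was called, at -0.26 with an adjusted p of 0.0351, and 14 members had an unadjusted p under 0.05. Of these members 2 were above 0 and 12 below. In the same fit 3 of 62 other pathway genes were above 0 and 12 below at that threshold. Of 33 mitosis genes it was 1 above and 0 below. The share of all genes in this fit is not given here.

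The alisertib effect was also read in libraries that do not overlap, ALIS against CTL and Combination against TGFB. The sign was the same for 52 of the 53 members, against 69% of all tested genes. Members called lower in both numbered 26, which is 86.7% of the 30 in the first and 89.7% of the 29 in the second, where over all genes the shares were 22.5% of 657 and 80.9% of 183, with 0.719% of all genes called lower in both. The TGFβ effect, TGFB against CTL and Combination against ALIS, had the same sign for 50 of the 53 members, against 84% of all genes, and 27 were lower in both, which is 100% of the 27 in the first and 77.1% of the 35 in the second, where over all genes the shares were 79.4% of 4144 and 84.3% of 3903, with 16.0% of all genes called lower in both. Across the 53 genes, the 2 estimates correlated at r = 0.943 for alisertib and 0.984 for TGFβ, against 0.296 and 0.856 over all genes. For TGFβ, E2F7, E2F2 and E2F8 lay far from the other members, and r without them is not given. The set of all genes includes many with few counts and was not matched to the members by level. All genes share the same 12 libraries and are not independent replicates, so these are descriptions.

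**Figure D5:**
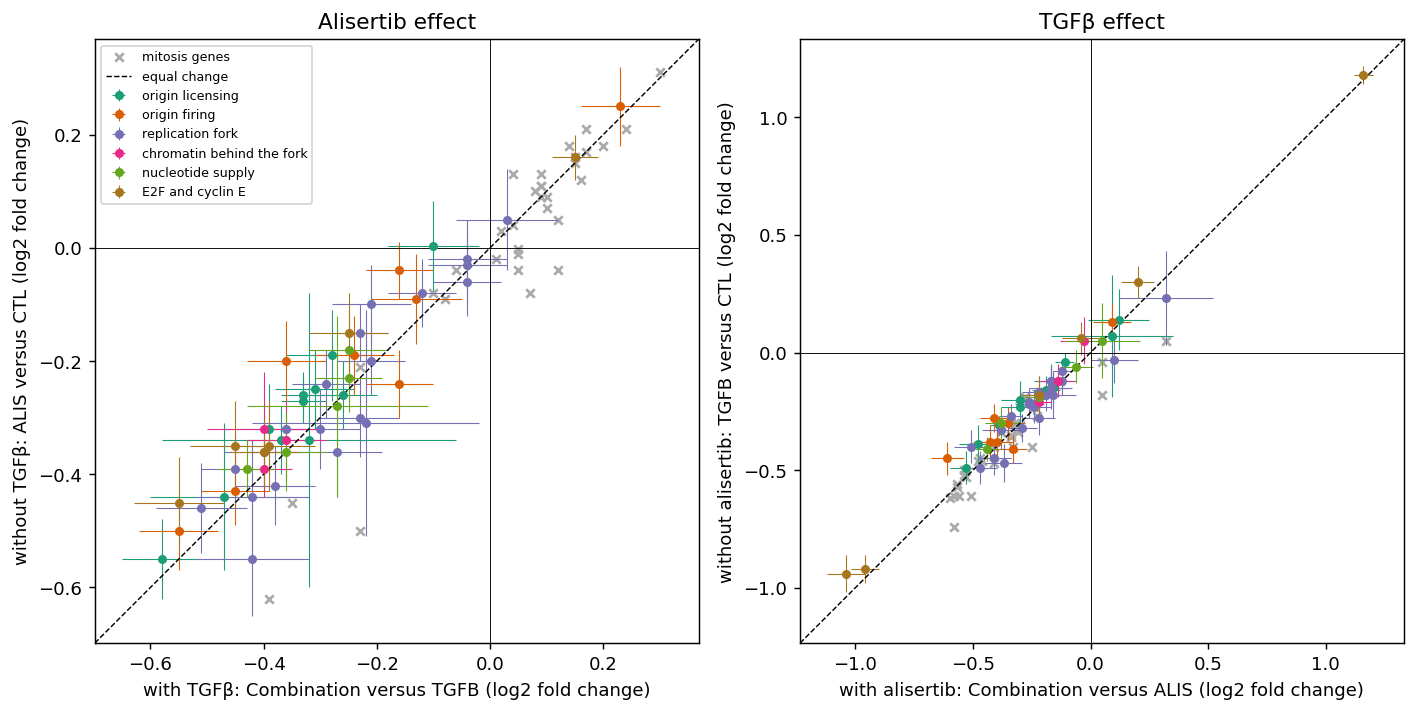
Each point is a gene, with its log2 fold change in the presence of the other agent on the horizontal axis and in its absence on the vertical axis, for alisertib on the left and TGFβ on the right. Bars are SE, the dashed line marks equal change and grey crosses are mitosis genes. The members lie near the line in both panels, with E2F7 at 1.16 and 1.18 for TGFβ.

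Calls of many members turned on how the libraries that stood apart were treated. A term for these 4 libraries added 15 called members in TGFB, 12 in ALIS and 3 in Combination against CTL, and 16 in Combination against TGFB, and it removed 0 in each. Of the added members 2, 1, 0 and 2 were called higher, with MCM5 and POLD1 the 2 in TGFB. The 12 in ALIS were 11 called lower, CDC6, CDT1, MCM5, MCM10, GINS1, RFC2, RPA3, POLD1, UHRF1, RRM2 and TK1, and DBF4, called higher at an adjusted p of 0.000371. Of the 12, 11 were also called in the 8 other libraries, where GINS1 had an adjusted p of 0.128. Gains with the term were not confined to the members. In ALIS, 27 of 62 other pathway genes were then called lower and 3 higher, where it was 12 and 0. Of 33 mitosis genes 11 were then higher and 1 lower, where it was 3 and 0. The share of all tested genes called with the term is not given here. The 11 members above 55% GC had median deviations of -0.12, -0.11, -0.13 and -0.23 on the log2 scale in TGFB library 6, ALIS library 9, Combination library 10 and CTL library 1, and the 20 members under 45% GC had 0.05, 0.05, 0.09 and 0.15. The helicase subunit MCM5, the polymerase subunit POLD1, thymidine kinase (TK1) and UHRF1, which helps to maintain DNA methylation and had no GC value, were not called in ALIS against CTL, with adjusted p-values of 0.0593, 0.431, 0.366 and 0.0664, and neither was CDT1 at 0.523. With a term for the 4 libraries these 5 genes were called lower, with 1.3e-06, 0.00717, 0.000696, 2.57e-05 and 0.0467 in the same gene order. In the 8 remaining libraries POLD1 had a log2 fold change of -0.42 and TK1 of -0.36. Among the 4 libraries themselves the log2 ratio of ALIS to CTL was 0.01 for POLD1 and -0.05 for TK1.

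Members with and without an E2F-type motif in the window were set side by side. In ALIS against CTL, 14 of the 20 with a motif were called lower, with a median log2 fold change of -0.35, as were 11 of the 24 without one, with a median of -0.23. In TGFB against CTL the counts were 12 and 11 with medians of -0.26 and -0.19, and in Combination against CTL 18 and 18 with medians of -0.62 and -0.45. The ranges overlapped in every comparison, and the difference between the 2 kinds of window was not tested. POLA1, MCM6, TYMS, PCNA and E2F2 hold a motif, and PRIM1, with -0.84 in Combination, does not.

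A list of 62 other genes of the same pathway was read beside the 53. Of these 32 were called lower and 5 higher with TGFβ, 12 lower and 0 higher with alisertib, and 38 lower and 3 higher with both, with medians of -0.16, -0.10 and -0.29. In ALIS, 0 were higher and 23 lower at an unadjusted p under 0.05, and DESeq2 also called 12 lower and 0 higher. Without the 4 libraries that stood apart, 25 were called lower and 5 higher in ALIS. With alisertib HELLS, a chromatin remodeller, averaged 44.6 CPM in ALIS and 63.8 CPM in CTL libraries, a log2 fold change of -0.52 ± 0.06 (SE, adjusted p = 0.000251). With TGFβ the small polymerase delta subunit POLD4 was higher, with 49.9 CPM in TGFB and 17.8 CPM in CTL libraries, at 1.48 ± 0.14 (SE, adjusted p = 7.42e-07). The fork protection factor TIPIN was lower, with 11.4 CPM in TGFB and 19.9 CPM in CTL libraries, at -0.81 ± 0.10 (SE, adjusted p = 1.32e-05).

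A list of 33 mitosis genes gives the other side of the cell cycle. With TGFβ 29 of them were called lower and 0 higher, by edgeR, by DESeq2 and at an unadjusted p under 0.05, with a median log2 fold change of -0.40. With alisertib alone 0 were called lower and 3 higher, with a median of 0.07, and with alisertib added to TGFβ 0 were lower and 1 higher, with a median of 0.09. At an unadjusted p under 0.05 in edgeR, 10 were higher and 3 lower in ALIS against CTL, and 9 were higher and 2 lower in Combination against TGFB. DESeq2 called 4 higher and 0 lower in each of these comparisons. Without the 4 libraries that stood apart, 15 were higher and 2 lower in ALIS against CTL. With both agents 26 were lower than in CTL, with a median of -0.36. The difference between this list and the replication members was not tested.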

How the data were processed

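RNA was sequenced from 12 libraries of MDA-MB-231 cells, 3 per group, with 93701658 to 120619368 counts per library. The labels' protocols name a miRNeasy kit for total RNA and the TruSeq RNA v2 library kit, which is not strand-specific. Named in the submitters' processing notes are hg19 and the tools bcl2fastq, TopHat, Subread and featureCounts, with no version or setting given. Read counts per gene were deposited by the authors as whole numbers without normalisation. The authors' RPKM values in the same table served only as a check of the scaling, and gene lengths were used as deposited.

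Counts were analysed with edgeR 4.0.16 in R 4.3.3: filterByExpr kept 20571 of 57773 genes, TMM factors scaled the libraries, and 1 robust quasi-likelihood fit on all 12 libraries, with 8 residual degrees of freedom, gave 5 pairwise comparisons and the interaction. P-values were adjusted by Benjamini-Hochberg over all tested genes, and calls were made under 0.05. Levels are CPM on the TMM scale. SE is the absolute log2 fold change over the square root of F. Alternatives were RLE size factors, DESeq2 1.42.0, no filter, leaving out each library, leaving out or fitting a term for libraries 1, 6, 9 and 10, an offset along GC content, and fits on only the 2 groups compared. The fit was tested on simulated data.

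The members and the pathway and mitosis lists were chosen with earlier results of these data known. Values per library are given for the 2 called members of each step with the largest change in ALIS against CTL, the called members with the largest rise and fall in TGFB against CTL, any called in the interaction, and 9 fixed genes (PCNA, CDT1, GMNN, CCNE1, CCNE2, E2F1, MCM2, RRM2 and TYMS). Of the pathway and mitosis lists, up to 3 called genes per comparison and direction may be named. Other members whose values are given were picked after those values were seen. Promoter sequences are from RefSeq, GRCh38.p14.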

Additional observations from a re-analysis of the deposited data

How the results depend on the processing

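No paired analysis was possible because the groups share no replicate numbers. Of 90 calls of members given with values per library by the rule, thus without DBF4, 69 were kept under every alternative. Of 1710 recomputed values 122 lost the call, with adjusted p-values up to 0.208, while 0 reversed. Most of those members were picked for large called changes. Over all members, calls kept whichever library was left out were 25 of 29 in TGFB, 17 of 31 in ALIS and 43 of 45 in Combination against CTL. They were 16 of 29 in Combination against TGFB and 26 of 37 in Combination against ALIS. Counts of called members moved by over 1.5 times in several settings. Among them were the fits without 1 library given above for ALIS against CTL and Combination against TGFB. With a term for libraries 1, 6, 9 and 10, 44 members were called in TGFB against CTL, where the count as reported was 29, and 45 in Combination against TGFB, where it was also 29. Without those libraries 46 were called in Combination against TGFB, and 1 member was called in the interaction, where it was 0. Fitting only the 2 groups gave 20 in ALIS against CTL, where it was 31. Leaving out each library gave 26 to 31 members in TGFB, 17 to 33 in ALIS and 44 to 46 in Combination against CTL. It gave 16 to 39 in Combination against TGFB, 27 to 42 in Combination against ALIS and 0 to 0 in the interaction. The cause was not tested, and the shares of all genes called under these settings are not given here. With 3 libraries a group, the 95% interval of the interaction had a median half-width of 0.21 on the log2 scale, which limits what could be detected.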

Other observations

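Mitosis genes named by the same rule gave the following values. KIF20A, a kinesin of cell division, averaged 316 CPM in ALIS and 255 CPM in CTL libraries, a log2 fold change of 0.31 ± 0.06 (SE, adjusted p = 0.00464, edgeR), and 213 CPM in Combination and 173 CPM in TGFB libraries, at 0.30 ± 0.06 (SE, adjusted p = 0.0145, edgeR). UBE2C, a ubiquitin-conjugating enzyme of the anaphase-promoting complex, averaged 165 CPM in ALIS and 143 CPM in CTL libraries, at 0.21 ± 0.04 (SE, adjusted p = 0.0123). CDCA8, a subunit of the chromosomal passenger complex, averaged 162 CPM in ALIS and 144 CPM in CTL libraries, at 0.17 ± 0.04 (SE, adjusted p = 0.0229). With TGFβ the kinase gene NEK2 averaged 48.4 CPM in TGFB and 74.6 CPM in CTL libraries, at -0.62 ± 0.07 (SE, adjusted p = 5.68e-06). NUF2, of the outer kinetochore, averaged 51.1 CPM in TGFB and 78.1 CPM in CTL libraries, at -0.61 ± 0.07 (SE, adjusted p = 3.46e-06).

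Further genes of the replication pathway differed between Combination and CTL libraries, and each of them was also called with TGFβ alone. The log2 fold changes in TGFB against CTL were -0.52 for CDCA7, -0.68 for DSCC1 and 0.52 for E2F4. In ALIS against CTL, CDCA7 was called at -0.32 and DSCC1 was not called at -0.17. CDCA7, a partner of the remodeller HELLS, averaged 22.8 CPM in Combination and 44.1 CPM in CTL libraries, at -0.95 ± 0.06 (SE, adjusted p = 8.53e-09). DSCC1, of an alternative clamp loader, averaged 12.9 CPM in Combination and 22.9 CPM in CTL libraries, at -0.82 ± 0.09 (SE, adjusted p = 4.61e-06). E2F4, an E2F known mainly as a repressor in resting cells, averaged 63.2 CPM in Combination and 47.3 CPM in CTL libraries, at 0.42 ± 0.11 (SE, adjusted p = 0.0072).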
